A study of Homo sapiens with 6 samples.

Results

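The S100A genes encode small calcium-binding proteins, and 10 of them (S100A4, S100A6, S100A7, S100A8, S100A9, S100A10, S100A11, S100A13, S100A14 and S100A16) were followed in MDA-MB-468 cells after knockdown of the long non-coding RNA NRAD1 (LINC00284). The 10 were chosen with earlier results of these data known, and other S100A genes are described with the rest of the S100 family. Gene symbols identified their transcript clusters (gene-level probe sets), and all 10 were measured, each by 1 of 53617 on the array. MDA-MB-468 cells are an established line from a triple-negative breast cancer with basal-like expression. The cells were transfected for 48 h with 15 nM of GapmeR#4, an antisense oligonucleotide against NRAD1, or with the same dose of a negative control GapmeR. There were 3 biological replicates of each, so the data come from 1 cell line, 1 antisense sequence and 1 time. How the cultures of the replicates were separated is not stated, so the p-values rest on the spread among these arrays, which may be technical.

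S100 proteins are dimers whose subunits hold a pair of EF-hand calcium-binding loops, and calcium exposes a surface that docks to partner proteins. Some act inside the cell on annexins and the cytoskeleton. Others are secreted and act on cell surface receptors such as RAGE and TLR4. Most S100A genes lie together in the epidermal differentiation complex of chromosome 1, beside genes for filaggrin, involucrin and small proline-rich proteins, and several are known to be high in squamous epithelia and in breast carcinomas.

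NRAD1 itself had log2 signals of 2.96, 2.99 and 2.90 on the GapmeR#4 arrays and 3.43, 3.46 and 4.02 on the control arrays. The groups did not overlap (exact permutation test, 2-sided, p = 0.1, the smallest that 3 arrays against 3 can give), and the log2 change was -0.69 (standard error 0.17, limma adjusted p of 0.0908). The signal was dim in both groups. The median log2 signal of an array was 3.96 to 4.00 and the upper quartile 5.76 to 5.78. The limma test called (adjusted p under 0.05) 2.56% of all transcript clusters, 614 higher and 760 lower, and without control GapmeR replicate 2 these numbers were 44 and 23. Of 8 measured epithelial markers of the line, 6 (EPCAM and EGFR among them) were above the upper quartile on all arrays, and KRT8 and KRT14 were above the median on all. Of the hormone receptor genes, PGR was below the median on all arrays and ESR1, at 3.68 to 3.94 in GapmeR#4 cells and 3.96 to 4.22 in control cells, lay on both sides of it.

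None of the 10 S100A genes passed a limma adjusted p under 0.05 (and none with the methods' t-test after adjustment), against the 2.56% called over the array. At an unadjusted p under 0.05 from limma 1 of the 10 genes passed, S100A7, a smaller share than the 16.8% of all transcript clusters. S100A7 was lower in GapmeR#4 cells by 1.72-fold. The other 9 genes had log2 changes between -0.06 and 0.35. The groups did not overlap for S100A7 and S100A13, 2 of 10 genes, against 23% of all transcript clusters. The median log2 change of the 10 genes was 0.07, and that of all transcript clusters 0.02. The median size of change, sign left aside, was 0.11 for the S100A genes and 0.15 over the array. By level, 8 of the 10 were above the upper quartile on all arrays, and S100A4 and S100A13 were above the median on all. Of the 10 other measured S100 genes, 1 was above the upper quartile on all arrays.

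**Figure D1:**
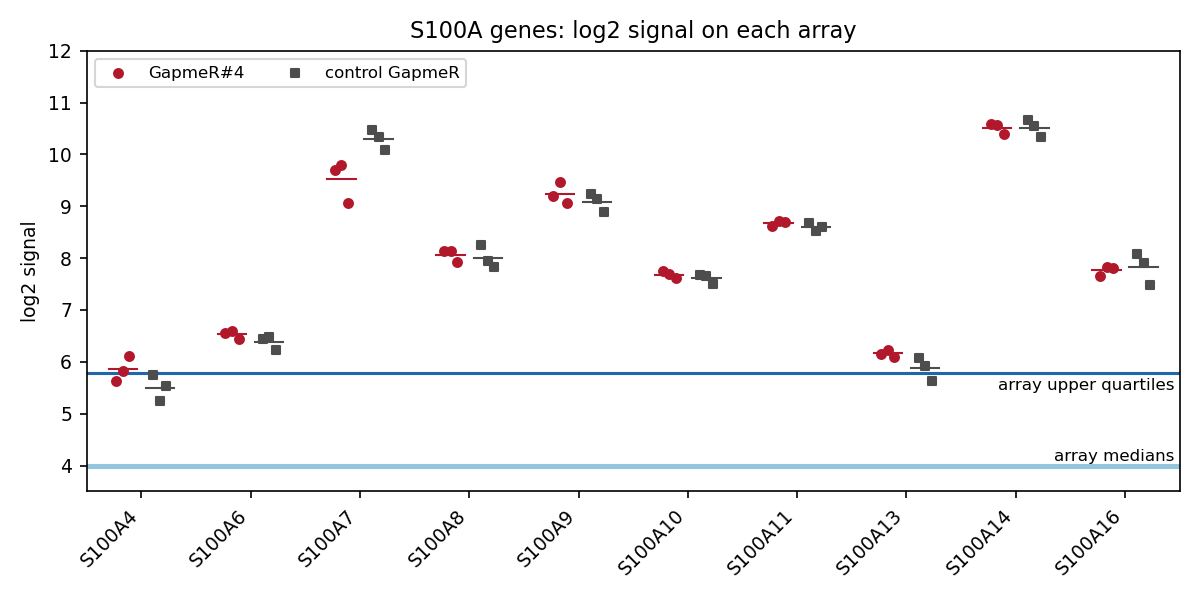
Log2 signal of each S100A gene on the 3 GapmeR#4 arrays (circles) and the 3 control GapmeR arrays (squares), with group means as short lines and the range of the array medians and upper quartiles as bands. S100A7 is the gene whose 3 GapmeR#4 values, 9.06 to 9.81, all lie below its control values, 10.09 to 10.47. Signals of different genes come from different probes and are not comparable as levels.

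S100A7 encodes psoriasin, a secreted protein of stressed and inflamed epithelia that is also made by many high-grade breast carcinomas. Its log2 signal was 9.70, 9.81 and 9.06 on the GapmeR#4 arrays and 10.47, 10.34 and 10.09 on the control arrays. All GapmeR#4 arrays were below all control arrays, and GapmeR#4 replicate 3 was the lowest by a wide margin. The log2 change was -0.78 (standard error 0.21, 95% confidence interval -1.28 to -0.28), and the limma adjusted p of 0.117 does not pass. A rule that asks for a drop past 1.7-fold with a limma p under 0.05 before adjustment took in 1.2% of transcript clusters, S100A7 just inside at 1.72-fold and S100A7A just outside at 1.66-fold. It no longer met that rule without GapmeR#4 replicate 3 (log2 change -0.55), control GapmeR replicate 1 (-0.69) or control GapmeR replicate 2 (-0.76). Over 13 alternative fits its log2 change stayed between -0.92 and -0.55, with adjusted p from 0.0596 to 0.29. None of the 8 measured epithelial markers passed, and all 8 log2 changes were negative, where 54.1% of all transcript clusters had a positive one. They ran from -0.50 (KRT19), -0.36 (EGFR) and -0.32 (KRT5), whose groups did not overlap, to -0.01 (EPCAM), and the groups of the other 5 overlapped. Over the array 23% of transcript clusters had groups that did not overlap. The summed linear signal of the 8 markers was 5606 to 6153 on GapmeR#4 arrays and 6411 to 6777 on control arrays. Its part in the S100A7 value was not tested, and in these bulk samples fewer cells making a transcript cannot be told apart from less transcript per cell.

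The S100 gene closest to S100A7 in log2 change was its close copy S100A7A (koebnerisin), which is not among the 10. S100A7A had log2 signals of 4.41, 4.98 and 4.19 on the GapmeR#4 arrays and 5.38, 5.18 and 5.21 on the control arrays. Its groups did not overlap either, and the log2 change was -0.73 (standard error 0.20, limma adjusted p of 0.12). No other measured S100 gene had a log2 change below -0.07. The array's probes were not compared with the transcripts, so signal shared between these copies was not assessed. The bases upstream of the genes are shown because these copies had log2 changes of like size. They are the 250 bases before each transcription start in RefSeq GRCh38.p14, 5′ to 3′ on the gene's strand, with capitals at the bases that differ, S100A7 at chr1:153460652-153460901 (minus strand) and S100A7A at chr1:153416270-153416519 (plus strand).
S100A7: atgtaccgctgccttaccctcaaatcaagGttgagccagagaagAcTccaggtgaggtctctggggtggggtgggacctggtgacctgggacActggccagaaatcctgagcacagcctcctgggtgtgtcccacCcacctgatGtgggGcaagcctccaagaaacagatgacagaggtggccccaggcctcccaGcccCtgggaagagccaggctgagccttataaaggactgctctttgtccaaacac
S100A7A: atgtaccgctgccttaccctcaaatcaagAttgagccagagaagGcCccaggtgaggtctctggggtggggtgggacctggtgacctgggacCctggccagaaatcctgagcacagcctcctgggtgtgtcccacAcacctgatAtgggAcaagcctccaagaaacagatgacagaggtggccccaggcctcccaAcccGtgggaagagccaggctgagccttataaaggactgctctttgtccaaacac
The windows differed at 9 of 250 bases (96.4% identical), and none of these lay in the last 50 bases before the start. The next most similar pair, with the first listed window of each S100A gene compared, S100A7A and S100A14, had 56.4% identical bases in a global alignment. Both S100A7 windows hold a TATA box, TATAAA, at positions -28 to -23 from the start. They also hold AGGTCA, a part of nuclear receptor binding motifs and not a whole site, on the opposite strand, at positions -169 to -164 from the start. Of all 35116 RefSeq windows of this length, read on both strands, 10.7% held TATAAA and 12.1% held AGGTCA. RefSeq lists several starts for some genes, and the 10 S100A genes had 15 windows (3 each for S100A8 and S100A13, 2 for S100A16). Of the 15 windows, 6 held TATAAA (2 of S100A8, and 1 each of S100A4, S100A7, S100A9 and S100A13) and 2 held AGGTCA (S100A4 and S100A7). The 2 S100A8 windows overlap and share 1 TATAAA site, at -29 to -24 in the first of them and at -126 to -121 in the other. The AP-1 motif TGANTCA was in none of their windows and in 6.57% of all. TTGCNNAA, a C/EBP-like motif, was found for S100A11 alone (9.05% of all windows), and TTNCNNNAA for S100A9 and S100A10 (30.5%).

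S100A8 and S100A9 encode the subunits of calprotectin, an antimicrobial, metal-sequestering heterodimer that myeloid cells make in quantity and stressed epithelia also make. S100A8 had log2 signals of 8.14, 8.14 and 7.92 on the GapmeR#4 arrays and 8.25, 7.95 and 7.83 on the control arrays. S100A9 had 9.20, 9.47 and 9.06 on the GapmeR#4 arrays and 9.23, 9.15 and 8.88 on the control arrays. The groups overlapped for both genes. The log2 change was 0.06 for S100A8 (95% confidence interval -0.27 to 0.39), with a sign that turned without control GapmeR replicate 3 (-0.03), and 0.15 for S100A9 (-0.19 to 0.50). S100A9 ran from 0.04 without GapmeR#4 replicate 2 to 0.25 without GapmeR#4 replicate 3. Both intervals of the full fit lie within a 1.5-fold change either way. Of 12 myeloid markers 8 were measured and none passed, 4 with a positive and 4 with a negative log2 change. Their summed linear signals were 234 to 248 on GapmeR#4 arrays and 244 to 263 on control arrays. By level, CD68 was above the upper quartile on all arrays, TYROBP, FCN1 and CSF1R were above the median, CD14 was on both sides of it, and MPO, CD163 and LYZ were below it. CD14 had the highest log2 change of them (0.37, limma adjusted p of 0.233). Their part in the S100A8 and S100A9 values was not tested.

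S100A10, S100A11, S100A6 and S100A4 encode intracellular partners of annexins and other proteins. S100A10 (p11) binds annexin A2 and has lost its calcium binding. S100A10 log2 signals were 7.74, 7.69 and 7.62 on the GapmeR#4 arrays and 7.68, 7.65 and 7.51 on the control arrays, a log2 change of 0.07 (95% confidence interval -0.17 to 0.31). S100A11, which binds annexin A1, had 8.62, 8.71 and 8.70 on the GapmeR#4 arrays and 8.67, 8.52 and 8.59 on the control arrays, a log2 change of 0.08 (-0.15 to 0.31). Signal from the processed pseudogenes of S100A11 was not separated. S100A6 (calcyclin) had 6.56, 6.59 and 6.44 on the GapmeR#4 arrays and 6.44, 6.48 and 6.23 on the control arrays, a log2 change of 0.15 (-0.11 to 0.41). The groups overlapped for these 3 genes, by a narrow margin for S100A6. Over the alternative fits the log2 change ran from 0.02 to 0.10 for S100A10, from 0.03 to 0.12 for S100A11 and from 0.07 to 0.20 for S100A6. S100A4, a binder of non-muscle myosin known for its role in metastasis, had 5.63, 5.81 and 6.12 on the GapmeR#4 arrays and 5.75, 5.24 and 5.53 on the control arrays. Its log2 change of 0.35 (standard error 0.18, limma adjusted p of 0.377) was the highest of the 10, and its groups overlapped. S100A4 ran from 0.22 without control GapmeR replicate 2 to 0.47 without control GapmeR replicate 1.

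S100A13 takes part in the release of FGF1 and interleukin 1 alpha, which leave cells without a signal peptide. Its log2 signal was 6.16, 6.23 and 6.10 on the GapmeR#4 arrays and 6.07, 5.92 and 5.64 on the control arrays. The groups did not overlap, though GapmeR#4 replicate 3 and control GapmeR replicate 1 lay close together. The log2 change was 0.29 (standard error 0.13, limma adjusted p of 0.333), and it ran from 0.17 without control GapmeR replicate 3 to 0.38 without control GapmeR replicate 1. S100A14 and S100A16 are epithelial S100 genes next to S100A13 on the chromosome. S100A14 had 10.59, 10.57 and 10.39 on the GapmeR#4 arrays and 10.66, 10.54 and 10.33 on the control arrays, and its log2 change was 0.00 (95% confidence interval -0.29 to 0.30). S100A16 had 7.65, 7.83 and 7.81 on the GapmeR#4 arrays and 8.08, 7.91 and 7.49 on the control arrays, with a log2 change of -0.06 (-0.45 to 0.32). The control arrays of S100A16 spanned the whole range of the GapmeR#4 arrays. The signs of S100A14 and S100A16 turned under some alternatives, given with the processing. In all, 7 of the 10 genes had 95% intervals within a 1.5-fold change either way, and S100A4, S100A7 and S100A13 did not.

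**Figure D2:**
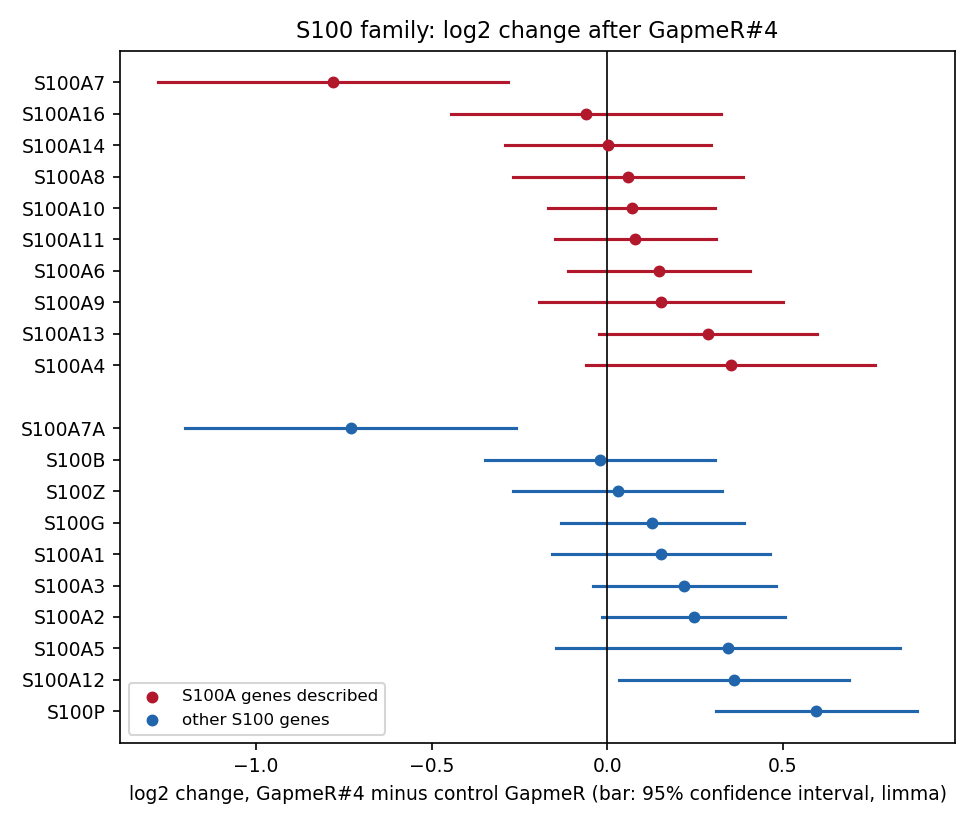
Log2 change (GapmeR#4 minus control GapmeR, points) with 95% confidence intervals from limma (bars) for the 10 S100A genes (red) and 10 other measured S100 genes (blue), each set ordered by change. S100A7 (-0.78) and its copy S100A7A (-0.73) lie apart from the rest on the negative side, and S100P has the highest value (0.60).

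Differences within an array between S100A7 and the other 9 genes were computed after the values were seen and describe the same signals again, with no test. The log2 difference between S100A7 and S100A9 was 0.50, 0.34 and 0.00 on the GapmeR#4 arrays and 1.25, 1.19 and 1.21 on the control arrays. Among the control arrays this difference had a range of 0.06, and the ranges for the 9 genes ran from 0.045 (S100A14) to 0.53 (S100A4). The S100A9 difference was lower on each GapmeR#4 array, by 0.93 on average. Against each of the 9 genes the difference was lower on all GapmeR#4 arrays than on all control arrays, by 0.72 (S100A16) to 1.13 (S100A4). All 9 differences use the same S100A7 values and are not independent of each other. Against S100A7A the difference overlapped between groups and changed by -0.05.

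**Figure D3:**
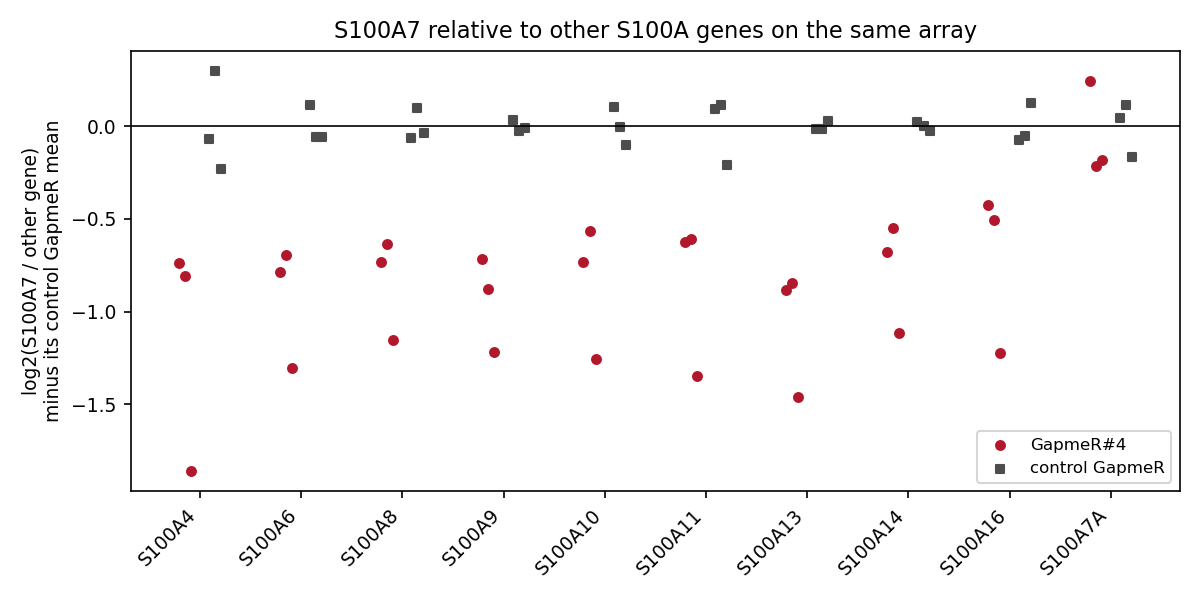
Log2 ratio of S100A7 to each other gene on the same array, minus the mean of that ratio over the control GapmeR arrays (GapmeR#4, circles; control GapmeR, squares). For the 9 genes on the left every GapmeR#4 array lies below every control array, and for S100A7A, on the right, the groups overlap.

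Within a group, the S100A genes often deviated from the mean on the same arrays. Of the 45 pairs, 38 had a positive correlation of their deviations from the group means over the 6 arrays (median Pearson r 0.705, lowest -0.457, highest 0.964), given as a description. Over all pairs of the 11743 transcript clusters above the upper quartile on all arrays, 50.2% had a positive r and the median was 0.00354, and 13.7% had an r above 0.705. The highest was that of S100A10 and S100A14, and the lowest that of S100A4 and S100A7. Among the control arrays, 9 of the 10 genes were highest in replicate 1 and 8 were lowest in replicate 3. Among the GapmeR#4 arrays, 7 were highest in replicate 2 and 7 were lowest in replicate 3. Of the same 11743 transcript clusters, 36.2%, 37.5%, 26.8% and 35.6% had these same extremes, in that order. S100A4 was the gene least like the others, highest in GapmeR#4 replicate 3 where S100A7 was lowest.

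Of the other S100 family genes, 10 of 11 listed were measured and none passed an adjusted p under 0.05 from limma, 8 with a positive and 2 with a negative log2 change. At an unadjusted p under 0.05 from limma 2 were higher and 1, S100A7A, was lower, against 16.8% of all transcript clusters in either direction. S100P, a secreted ligand of RAGE, had 5.59, 5.91 and 5.67 on the GapmeR#4 arrays and 5.23, 5.04 and 5.12 on the control arrays. Its groups did not overlap, and its log2 change was 0.60 (standard error 0.12, limma adjusted p of 0.0558). S100A12, a neighbour of S100A8 and S100A9 known from neutrophils, had a log2 change of 0.36 (limma adjusted p of 0.25) at a signal near the array medians. The study's list of genes tied to ALDH1A3, drawn from arrays that were not analysed here, holds 3 S100 genes, S100A7, S100A7A and S100A9. The directions on that list and the share of array genes on it were not compared with these data, and a shared regulation was not tested.

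Among 17 measured partners and receptors of S100 proteins, of 29 listed, the limma test called 1 higher and none lower (adjusted p under 0.05). Over the array it called 2.56% of transcript clusters. The median log2 change of the 17 genes was 0.05. The gene called was ANXA1, whose product annexin A1 binds S100A11. ANXA1 averaged 10.88 ± 0.04 in GapmeR#4 cells and 9.99 ± 0.04 in control cells (SD, n = 3 each), a log2 change of 0.89 (standard error 0.09, limma adjusted p of 0.00988). This call was lost without control GapmeR replicate 2 (limma adjusted p of 0.0568). ANXA2, the partner of S100A10, had a log2 change of 0.61 (limma adjusted p of 0.061), with groups that did not overlap. Of the 17 genes, 5 were higher and 2 lower with groups that did not overlap, against 23% of all transcript clusters in either direction. The receptors AGER (RAGE) and TLR4 had log2 changes of 0.05 each, and TLR4 was dim at 2.58 in GapmeR#4 cells and 2.53 in control cells.

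In the epidermal differentiation complex, 44 of 47 listed genes other than S100 genes were measured. Of these, 23 were below the median on all arrays, and the median log2 change was 0.08. TCHHL1, a trichohyalin-like gene beside S100A11, was the only one to pass (log2 change 0.77, limma adjusted p of 0.048), and none was called lower. Over the array 2.56% of transcript clusters passed. PRR9, a proline-rich gene of the complex, had the highest log2 change of it (1.44, limma adjusted p of 0.0667). TCHHL1 kept its call only where control GapmeR replicate 3 was the array left out, with adjusted p up to 0.166 without the others. With all 60 measured genes of the complex set in RefSeq order, S100A7 and S100A7A were next to each other and had the lowest log2 changes of all. No other gene of the 60 was below -0.5. Their measured neighbours S100A8 on one side and S100A6 on the other had log2 changes of 0.06 and 0.15.

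**Figure D4:**
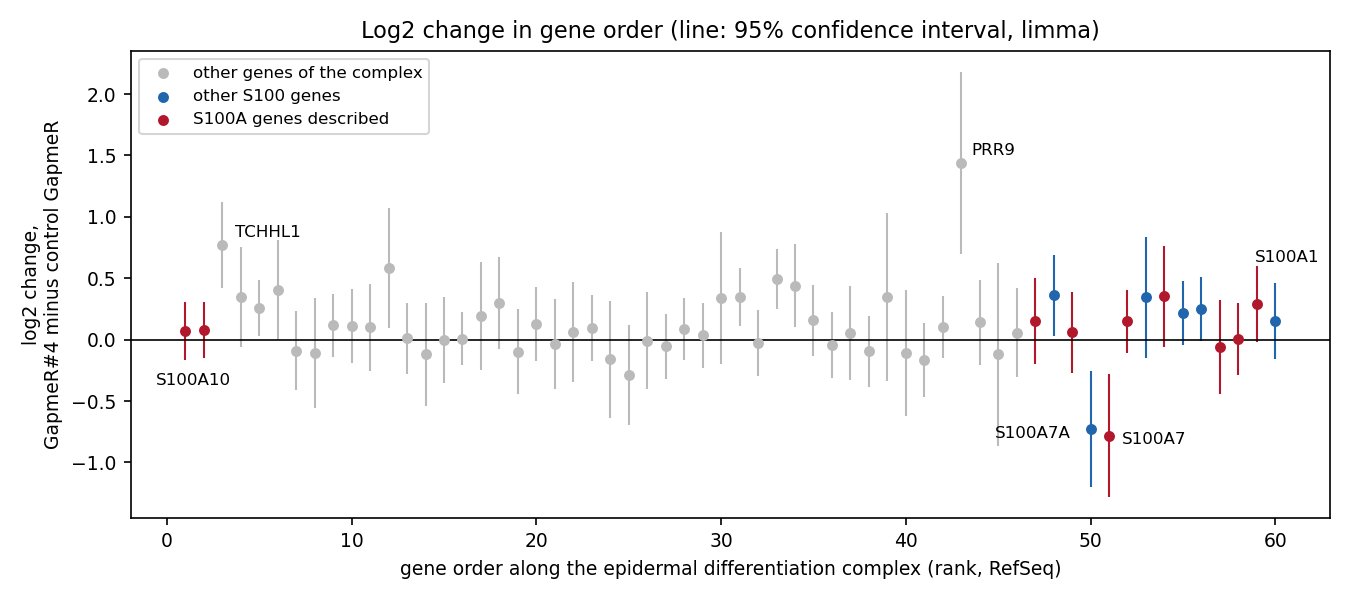
Log2 change (GapmeR#4 minus control GapmeR, points) with 95% confidence intervals from limma (lines) of 60 measured genes in their order along the epidermal differentiation complex. S100A7A and S100A7, next to each other among the measured genes, are the lowest points. Their measured neighbours S100A8 and S100A6 have log2 changes of 0.06 and 0.15, and S100A12, S100A5 and S100A4, farther out, have 0.36, 0.34 and 0.35.

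Of 17 measured epithelial antimicrobial and stress genes, of 33 listed, the limma test called 3 lower and 1 higher (adjusted p under 0.05), with a median log2 change of -0.04. Over the array it called 2.56% of transcript clusters. The list was chosen with earlier results of these data known, so its counts are no measure of enrichment. The chemokine CXCL17 fell by 0.91 on the log2 scale, the kallikrein KLK7 fell by 0.82 and LCN2, the iron-binding lipocalin of epithelia and neutrophils, fell by 0.71. The defensin DEFB1 rose by 1.26 (limma adjusted p of 0.0271, 0.0167 to 0.0252 for the other 3). DEFB1 was named only by the study's supplementary table of genes it reported as regulated. It could therefore enter this list because of its change. With 1 array left out, LCN2 and KLK7 passed in 0 of 6 fits, CXCL17 only without control GapmeR replicate 3 and DEFB1 only without GapmeR#4 replicate 3. Their adjusted p-values then reached 0.104, 0.094, 0.0794 and 0.0964.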

How the data were processed

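The authors hybridised total RNA to Affymetrix Human Gene 2.0 ST arrays, 1 per sample, and processed them with Affymetrix Expression Console (submitters' notes). They deposited log2 signals of 53617 transcript clusters. The normalization, genome build and software version were not given in the sources used here. Signals were used as deposited. Symbols came from the platform annotation, or where blank from a supplementary table of the study, whose columns of fold changes and p-values were not used. That table holds genes the study reported as regulated, so a gene named only by it could enter a list because of its change. All 10 S100A genes were named by the annotation, each with 1 transcript cluster. For listed genes with several, the brightest was used.

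Groups (3 arrays each) follow the titles. The limma package 3.58.1 (R 4.3.3) was fitted to all transcript clusters (2 groups, moderated variances, 2-sided) with Benjamini-Hochberg adjustment over all of them. The method was tested on simulated data. The contrast is GapmeR#4 minus control GapmeR. Correlations and motif matches are descriptions. Promoter windows came from RefSeq, where all 10 genes matched.

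The rule for named genes covers the 10 genes, NRAD1, called genes of the S100, partner and complex lists, and the 4 (or, with none called, 2) top members by p of each other list. PRR9, S100P, S100A12, S100A7A, ANXA2, AGER, TLR4 and markers were named after their values were seen. Members and lists were chosen with earlier results of these data known. Alternatives were the brighter 50% of transcript clusters, an intensity trend with robust prior, the methods' t-test, quantile normalization, median centring, array weights, a replicate block and omission of each array in turn. Fits of the fold rule under these and the within-array differences were added after the data were seen. Precision is limited by the number of arrays.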

Additional observations from a re-analysis of the deposited data

How the results depend on the processing

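With the replicate number as a replicate block, the numbers of S100A genes called stayed at 0, and S100A7 had a log2 change of -0.78 with an adjusted p of 0.101 from limma. Over the array the block left 35 transcript clusters lower and 55 higher. The main fit had no block because the study names no covariate. Over all transcript clusters, same-numbered arrays did not deviate together (correlations -0.0645, -0.00476 and -0.0179). Of the 10 S100A genes, 8 were lowest in control GapmeR replicate 3 and 7 in GapmeR#4 replicate 3, against 34.4% and 32.1% of all transcript clusters. For S100A7 the standard error was 0.14 with the block and 0.21 in the main fit. The counts of S100A genes called lower and higher stayed at 0 in all 13 alternatives (1 gene, S100A7, at an unadjusted p under 0.05 by limma and by the methods' t-test). The whole array gave 1466 lower and 1282 higher among the brighter 50% of transcript clusters, 1273 and 1176 with a trend and robust prior, 4 and 8 with the methods' t-test, and 23 to 236 and 44 to 269 with 1 array left out. Of 130 log2 changes of single S100A genes under alternatives, 122 kept their direction and side of the threshold and 8 changed sign. S100A14 became -0.0497 with quantile normalization, -0.00353 with median centring and -0.00578 with array weights. With 1 array left out, S100A14 ran from -0.0897 (without control GapmeR replicate 3) to 0.0784, negative also without GapmeR#4 replicate 1 or 2, S100A16 from -0.23 to 0.0641 (without control GapmeR replicate 1), and S100A8 from -0.0301 (without control GapmeR replicate 3) to 0.179. The cause was not tested. The median log2 change of the S100A genes, 0.0746, was 0.0304 with quantile normalization and ran from 0.0341 (without control GapmeR replicate 3) to 0.147 (without control GapmeR replicate 1) with 1 array left out. S100P passed among the brighter 50% (adjusted p = 0.0228 from limma). No gene had a further transcript cluster to try.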

Other observations

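Transcription factors and signals known to act on S100 genes held 3 higher and 0 lower genes among 19 measured, of 32 listed, at an adjusted p under 0.05 from limma (3 higher and 5 lower at an unadjusted p under 0.05). Over the array the shares in either direction were 2.56% and 16.8%. The list was chosen with earlier results of these data known, so its counts are no measure of enrichment. The AP-1 subunit FOSL1 averaged 7.53 in GapmeR#4 cells and 6.01 in control cells, a log2 change of 1.52 (limma adjusted p of 0.027). TP63, the master factor of squamous epithelium, and KLF4, a factor of its differentiation, rose by 0.63 and 0.54. TP63 was named only by the study's supplementary table of genes it reported as regulated, so it could enter this list because of its change. The epithelial factor GRHL2 had a log2 change of -0.44 (limma adjusted p of 0.109). TP63 and KLF4 passed in 0 of 6 fits with 1 array left out (adjusted p up to 0.14 and 0.168 from limma). FOSL1 passed without GapmeR#4 replicate 1 and without GapmeR#4 replicate 3, and its adjusted p reached 0.0938 without the other arrays.

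Other EF-hand calcium sensors held no call among 12 measured, of 27 listed (limma, 1 higher and 2 lower at an unadjusted p under 0.05). Of these, 10 had a negative log2 change, with a median of -0.13. Sorcin (SRI) had a log2 change of 0.43 (limma adjusted p of 0.0589) and SDF4 one of -0.39 (adjusted p = 0.215).

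The named genes whose signals were most like S100A7 over the 6 arrays, among 10506 named genes with a mean above the array medians, were ACAA2, a thiolase of fatty acid oxidation, the acyl-CoA synthetase ACSF2 and CCDC167 (Pearson r 0.998, 0.996 and 0.994). For S100A4 they were CBLN1, TPTEP1 and LINC00852 (r 0.988, 0.988 and 0.986) and for S100A13 SP1, RPS19 and EMP3 (r 0.993, 0.980 and 0.978). These were picked as the highest of many and are descriptions.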
